A study of Mus musculus with 19 samples.

Results

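The serum amyloid A family was followed in mouse liver through its 4 genes, Saa1, Saa2, Saa3 and Saa4, which were taken by symbol from a table of read counts for 55416 genes. All 4 passed the filter on low counts that left 15570 genes for testing. The 19 liver libraries came from mice of strain C57BL/6 in 5 groups. A normal group of 4 libraries was from wild-type (WT) mice that received no injection, and 4 WT vehicle and 4 IL-6 -/- vehicle libraries were from mice injected with vehicle. A further 4 WT and 3 IL-6 -/- libraries were from mice with pre-renal azotemia (PRA), a rise of nitrogenous waste in blood when the kidneys receive too little flow, brought on by the loop diuretic furosemide. Furosemide was given by the peritoneal route at 4 mg per dose in 2 doses 3 h apart, vehicle on the same schedule, and liver was taken 6 h after the first dose. IL-6 -/- mice lack the cytokine interleukin-6, no IL-6 -/- mice without injection were sampled, and the labels give no age, sex or clone. The comparisons below address how PRA and the IL-6 genotype bear on hepatic Saa transcripts.

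Serum amyloid A proteins are small apolipoproteins of high-density lipoprotein (HDL). Saa1 and Saa2 encode the acute phase forms, which hepatocytes secrete in large amounts when interleukin-1, tumour necrosis factor and interleukin-6 act on the liver through NF-kB, C/EBP and STAT3, and which can deposit as amyloid A fibrils in chronic inflammation. Saa3 is an acute phase form of the mouse known for expression in macrophages, fat and epithelia besides liver, and Saa4 encodes the form usually called constitutive.

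Depth was 32073865 to 74041441 gene counts per library, and the first principal component of the 500 most variable genes, with 47.79% of their variance, placed the PRA libraries at 18.0 to 34.6 and all others at -21.7 to -6.57. Defining hepatocyte markers were abundant in every library, with a summed level of 70860 to 135455 CPM over 10 genes (CPM is the count divided by the library's TMM-scaled size and multiplied up to a common size, so that libraries can be compared). Il6 itself was at 0.408 CPM at most, and that library was labelled IL-6 -/- PRA, so Il6 gave no check of the genotype labels. Abhd1, a gene in the chromosome region of Il6, was at 48.4 CPM or more in every IL-6 -/- library and at 4.57 CPM or less in every WT library. Nothing in the labels ties a replicate to its own mouse, so every p below rests on the scatter of these libraries, which may be partly technical.

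In WT liver Saa1 and Saa2 rose to be among the steepest increases of the transcriptome. In IL-6 -/- liver the fitted rises were 2.50-fold for Saa1 and 2.81-fold for Saa2 (edgeR adjusted p = 0.0243 and 0.0678), and only that of Saa1 passed. Saa4 rose about as much in both genotypes. Saa3 rose in WT liver from a low level, and its 3 IL-6 -/- PRA libraries disagreed with each other. Of the 4 members, 4 rose in WT PRA against WT vehicle, where 9.74% of all tested genes rose and 22.1% were called in either direction (edgeR quasi-likelihood test, adjusted p at or under 0.05). In IL-6 -/- PRA against IL-6 -/- vehicle 2 of 4 rose, Saa1 and Saa4, against 7.96% of genes higher and 16.3% called. The difference between the responses, called the interaction below (IL-6 -/- response minus WT response), was called for 2 of 4, both lower, against 0.437% of genes lower and 0.475% in either direction. Loss of interleukin-6 and any other difference between the mouse colonies cannot be told apart in the interaction or in any comparison of genotypes. The members' median log2 fold change was 4.10 in WT and 1.41 in IL-6 -/- liver, where the medians of all genes were -0.03 and 0.00. With upper quartile scaling in place of TMM, 1238 of 3637 called genes were higher in WT PRA and 967 of 2741 in IL-6 -/- PRA, against 1516 of 3437 and 1240 of 2544 with TMM, and the calls of the 4 members in these comparisons were the same.

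**Figure D1:**
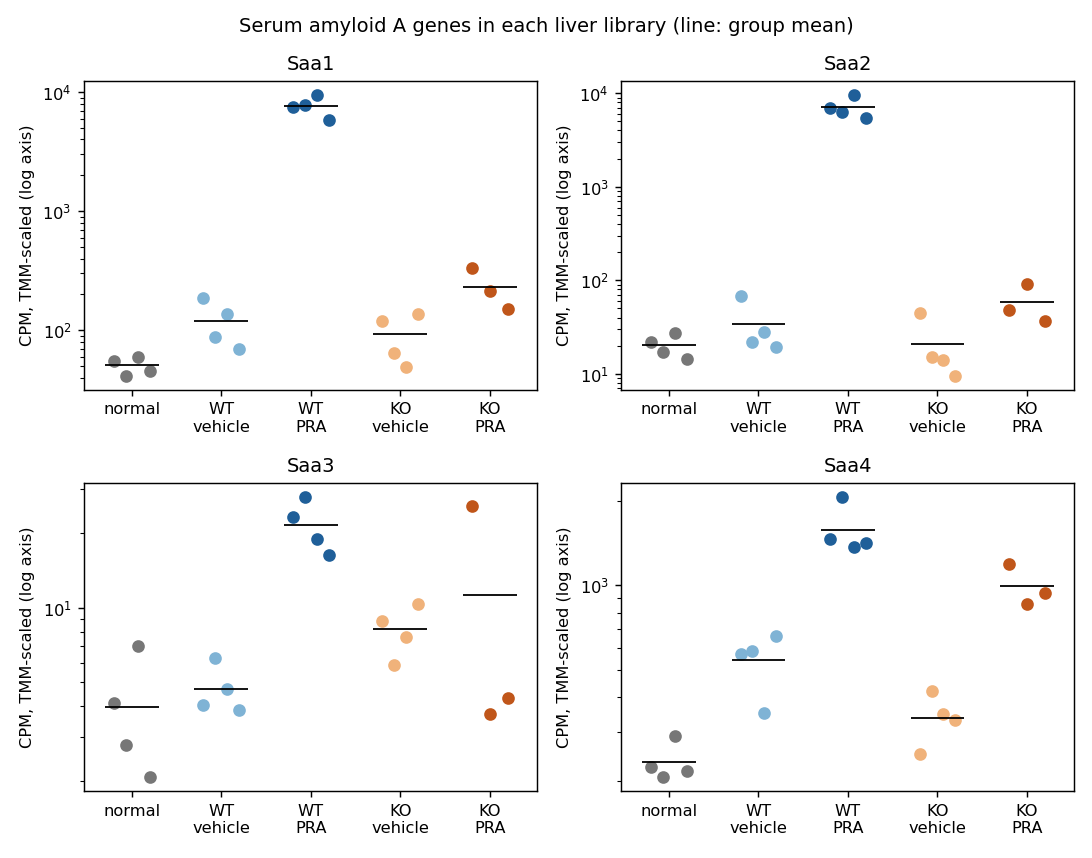
Levels of Saa1, Saa2, Saa3 and Saa4 in each of the 19 libraries, in TMM-scaled CPM on log axes that differ between panels (KO is IL-6 -/-), with 1 point per library and a line at each group mean. The WT PRA points of Saa1 and Saa2 lie far above all others, those of Saa4 lie above all others by a smaller margin, and for Saa3 1 IL-6 -/- PRA library lies among the WT PRA points.

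Saa1 (ENSMUSG00000074115), a hepatocyte acute phase gene, was at 55.3, 41.6, 60.2 and 45.7 CPM in the normal libraries. It was at 187, 87.1, 136 and 69.0 CPM after vehicle in WT liver and at 7495, 7752, 9440 and 5774 CPM after PRA. The lowest WT PRA library thus lay far above the highest WT vehicle library, and the groups did not overlap. The rise was 63.6-fold (log2 fold change 5.99 ± 0.43, SE, 95% interval 5.07 to 6.91, edgeR adjusted p = 1.18e-07, higher in 4 of 4 libraries), from 120 ± 52.8 to 7615 ± 1501 CPM (mean ± SD, n = 4 each).

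The IL-6 -/- libraries had Saa1 at 120, 64.1, 49.0 and 138 CPM after vehicle and at 332, 214 and 151 CPM after PRA. Every IL-6 -/- PRA library was above every IL-6 -/- vehicle library, by a narrow margin, and none came near the WT PRA libraries. The rise was 2.50-fold, to 232 ± 92.0 CPM (SD, n = 3; log2 fold change 1.32 ± 0.38, SE, edgeR adjusted p = 0.0243). This call was lost when any 1 of 4 libraries was left out, IL-6 -/- vehicle replicate 2 or 3 or IL-6 -/- PRA replicate 1 or 2 (log2 fold changes 1.18, 1.11, 0.996 and 1.38, edgeR adjusted p = 0.0609, 0.0589, 0.123 and 0.0527). The response in IL-6 -/- liver was 25.4 times smaller than in WT liver (interaction -4.67 ± 0.55 on the log2 scale, SE, edgeR adjusted p = 0.000425). From a bulk tissue library, fewer expressing cells and less RNA per cell cannot be told apart.

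Saa2 (ENSMUSG00000057465), the acute phase gene beside Saa1, had fewer counts than Saa1 in 18 of 19 libraries. It was at 21.7, 17.1, 27.6 and 14.4 CPM in the normal libraries and at 68.6, 21.8, 27.9 and 19.4 CPM after vehicle in WT liver. After PRA it was at 7004, 6376, 9558 and 5446 CPM, and WT PRA replicate 3 was the library with more Saa2 than Saa1 counts. The groups did not overlap, and WT vehicle replicate 1 stood above the other 3 vehicle libraries for Saa2 and was also the highest of them for Saa1. On the first principal component it was also the WT vehicle library nearest the PRA libraries (-6.57, the others -14.5 to -12.6). The rise was 206-fold (log2 fold change 7.68 ± 0.65, SE, 95% interval 6.30 to 9.06, edgeR adjusted p = 8.32e-07). Leaving out the high vehicle library, replicate 1, gave a log2 fold change of 8.28.

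After vehicle, Saa2 was at 44.7, 15.0, 14.02 and 9.57 CPM in IL-6 -/- liver, and after PRA it was at 47.9, 90.7 and 37.1 CPM. The highest vehicle library lay inside the PRA range, so these groups overlapped. The difference of 1.49 ± 0.53 on the log2 scale (SE, 95% interval 0.37 to 2.61) did not pass (edgeR adjusted p = 0.0678), and without IL-6 -/- vehicle replicate 1 it did (log2 fold change 2.19, edgeR adjusted p = 0.0065). The interaction for Saa2 was -6.19 ± 0.80 on the log2 scale (SE, edgeR adjusted p = 0.00115), a response 73.2 times smaller than in WT liver. Among 15570 genes it was the second lowest interaction, and that of Saa1 was the eighth lowest.

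**Figure D2:**
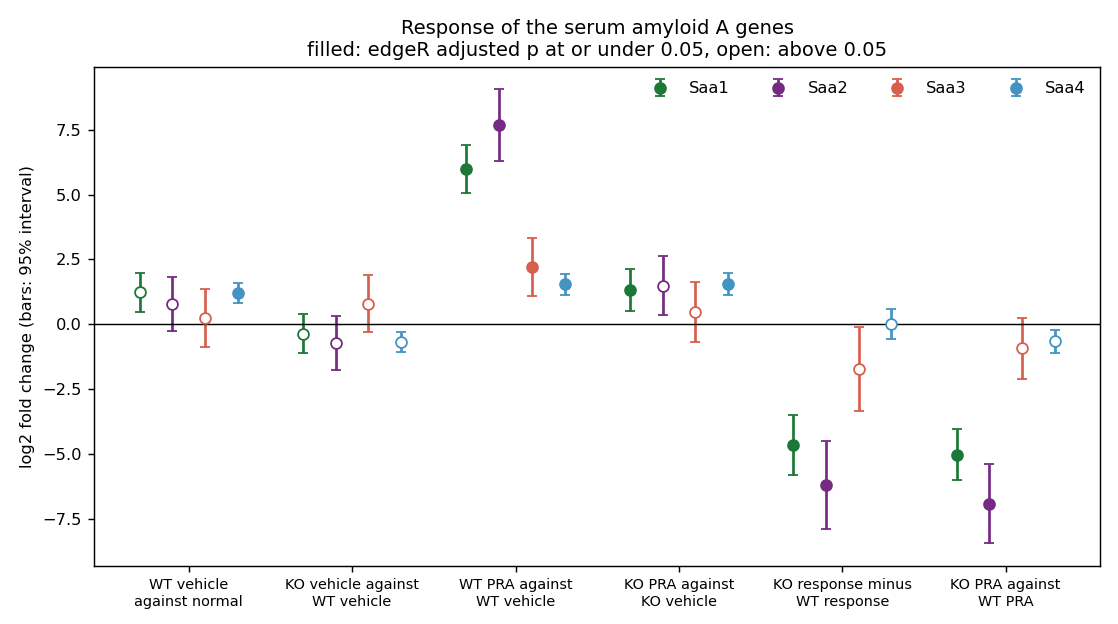
Log2 fold changes of the 4 genes in 6 comparisons (KO is IL-6 -/-), with 95% intervals of the edgeR fit, where filled points have an adjusted p at or under 0.05 and open points do not. Saa1 and Saa2 lie at 5.99 and 7.68 in WT PRA against vehicle and at -4.67 and -6.19 in the interaction, while Saa4 lies at 1.55 and 1.57 in the WT and IL-6 -/- responses and at 0.02 in the interaction.

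Saa1 and Saa2 lie side by side on chromosome 7 and are read in opposite directions. Upstream of their starts they are nearly the same, with 238 of 251 aligned positions identical (94.8%) between the windows printed here. The windows are the 250 bases before the start of each gene in RefSeq's table of the mouse build GRCm38.p6. Those of Saa3 and Saa4 matched that of Saa1 at 48.2% and 42.3% of aligned positions, with 52 and 86 gap positions. The identity of unrelated windows was not computed. Whether likeness of the windows bears on the response to PRA was not tested. Each is written 5′ to 3′ on the strand of its gene, at chr7:46742981-46743230 (minus strand) for Saa1, chr7:46751583-46751832 (plus strand) for Saa2, chr7:46715677-46715926 (minus strand) for Saa3 and chr7:46732604-46732853 (minus strand) for Saa4. Capitals mark matches to the motifs given below.
Saa1: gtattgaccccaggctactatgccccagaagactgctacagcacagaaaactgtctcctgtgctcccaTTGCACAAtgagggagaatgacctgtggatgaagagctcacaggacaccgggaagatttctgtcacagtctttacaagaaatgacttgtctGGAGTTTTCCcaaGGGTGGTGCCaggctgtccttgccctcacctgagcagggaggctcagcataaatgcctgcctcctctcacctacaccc
Saa2: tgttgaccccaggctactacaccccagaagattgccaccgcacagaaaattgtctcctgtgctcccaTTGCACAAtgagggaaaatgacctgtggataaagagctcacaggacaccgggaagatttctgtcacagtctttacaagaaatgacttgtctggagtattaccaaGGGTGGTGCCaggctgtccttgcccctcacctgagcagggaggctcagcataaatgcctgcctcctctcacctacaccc
Saa3: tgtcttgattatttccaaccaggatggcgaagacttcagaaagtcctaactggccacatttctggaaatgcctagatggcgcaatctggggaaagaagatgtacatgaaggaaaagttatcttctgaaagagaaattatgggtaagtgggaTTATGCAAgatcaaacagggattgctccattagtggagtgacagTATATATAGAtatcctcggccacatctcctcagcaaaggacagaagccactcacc
Saa4: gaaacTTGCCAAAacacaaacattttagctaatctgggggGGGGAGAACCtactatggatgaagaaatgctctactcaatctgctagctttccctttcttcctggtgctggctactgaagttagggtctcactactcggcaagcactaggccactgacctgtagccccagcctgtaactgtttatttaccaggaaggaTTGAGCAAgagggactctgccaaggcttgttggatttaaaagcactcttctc

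The motifs were searched on both strands in these windows and in all 32851 windows of the table. The C/EBP motif TTGCNNAA was in all 4 windows and in 9.56% of all windows. In Saa1 and Saa2 the match is the same TTGCACAA, 182 to 175 and 183 to 176 bases before the start. In Saa3 it lies 99 to 92 bases before the start, and Saa4 has 2 matches. The broad NF-kB motif, GGG and CC with 5 arbitrary bases between them, was in Saa1, Saa2 and Saa4 and in 45.8% of all windows, so a match to it is common.

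The narrower NF-kB motif, GG and TTTCC with 3 arbitrary bases between them, was in 4.63% of all windows and, within the family, only in that of Saa1, as GGAGTTTTCC at 91 to 82 bases before the start. The aligned letters of Saa2 are GGAGTATTAC, which differ from those of Saa1 by T6A and C9A, counted from 1 at the 5′ end of the Saa1 match. The second NF-kB-like run, GGGTGGTGCC, is shared by both genes a few bases further on. STAT letters TTCNNNGAA (7.02% of all windows) and paired glucocorticoid receptor half-sites ACANNNTGT (5.84%) were in none of the 4 windows, and the TATA motif TATANA (22.6%) was in that of Saa3, where its matches overlap each other. The motifs were picked with these sequences in view, and a match or its absence is a description of these letters alone.

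Reads of such similar genes could be assigned to the wrong copy. The mRNAs Saa1-201 and Saa2-201 of GENCODE M21 are identical at 572 of 609 aligned positions (93.9%). No stretch as long as a read of this study was shared between them, in 0 of 460 possible windows of Saa1-201, and the longest shared run was 99 bases. With shorter windows, 25 of 535 (4.67%) and 74 of 560 (13.2%) of those of Saa1-201 were shared. Only exact matches of these mRNAs were compared, and other annotated exons of the genes were left out. Saa1-201 matched the mRNA of Saa3 at 60.3% of aligned positions. With the counts of Saa1 and Saa2 summed into 1 feature, the log2 fold change in WT liver was 6.58 (edgeR adjusted p = 5.69e-08), that in IL-6 -/- liver was 1.36 (edgeR adjusted p = 0.0208) and the interaction was -5.22 (edgeR adjusted p = 0.000147). The sum takes no account of how reads were divided between the copies.

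The balance of the copies within a library, which no scaling between libraries can alter, moved toward Saa2 in WT PRA. The log2 ratio of Saa1 to Saa2 counts was 1.35, 1.28, 1.12 and 1.66 in the normal libraries and 1.44, 2.00, 2.28 and 1.83 in the WT vehicle libraries. In the WT PRA libraries it was 0.10, 0.28, -0.02 and 0.08, which is close to equal counts and below every other library. It was 1.42, 2.10, 1.81 and 3.85 in the IL-6 -/- vehicle libraries and 2.80, 1.24 and 2.03 in the IL-6 -/- PRA libraries, which overlapped.

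On average 1.08 Saa1 counts were found per Saa2 count in WT PRA, 3.70 in WT vehicle and 4.06 in IL-6 -/- PRA. The difference of -1.78 between WT PRA and WT vehicle had an exact permutation p of 0.0286 (2-sided, n = 4 each), the smallest that this design allows, and 0.0667 after Benjamini-Hochberg adjustment over the 14 ratio comparisons made, so it did not pass. IL-6 -/- PRA exceeded WT PRA by 1.91 with the same exact p of 0.0286 (adjusted 0.0667), and IL-6 -/- PRA and IL-6 -/- vehicle differed by -0.28 (exact permutation p = 0.771).

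**Figure D3:**
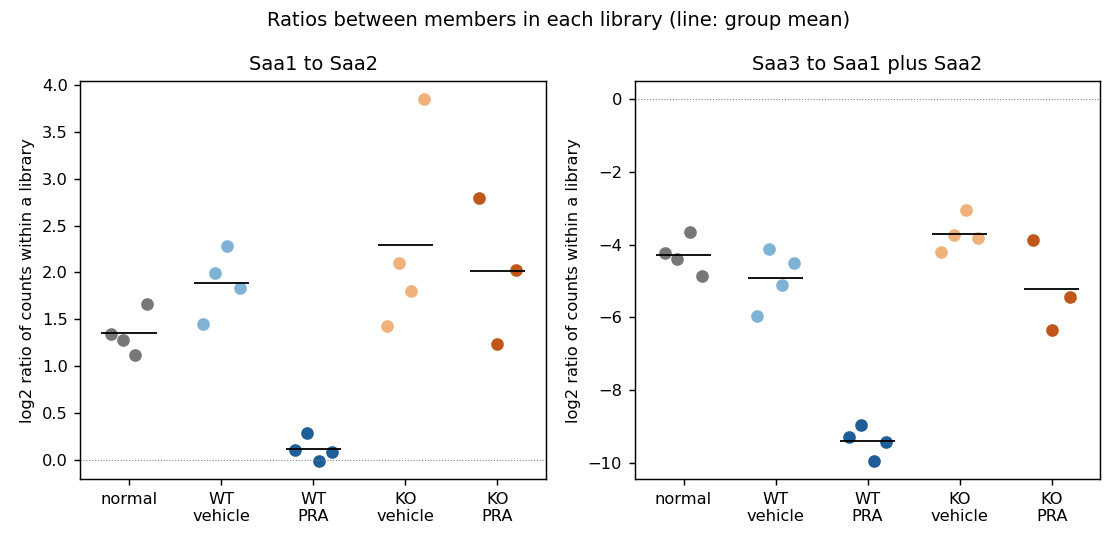
Log2 ratios of counts within each library, Saa1 to Saa2 on the left and Saa3 to the sum of Saa1 and Saa2 on the right (KO is IL-6 -/-), with 1 point per library and a line at each group mean. The 4 WT PRA libraries lie lowest in both panels, at -0.02 to 0.28 on the left and at -9.96 to -8.98 on the right.

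Saa3 (ENSMUSG00000040026), the acute phase form also made outside hepatocytes, had the lowest group mean per length of the 4 members in each of the 5 groups. It was at 4.10, 2.78, 6.98 and 2.06 CPM in the normal libraries, at 4.05, 6.24, 4.71 and 3.85 CPM in WT vehicle and at 23.2, 28.0, 19.002 and 16.3 CPM in WT PRA. All WT PRA libraries were above all WT vehicle libraries, and the rise was 4.59-fold (log2 fold change 2.199 ± 0.53, SE, 95% interval 1.07 to 3.33, edgeR adjusted p = 0.00767).

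Saa3 in IL-6 -/- liver was at 8.83, 5.87, 7.58 and 10.4 CPM after vehicle and at 25.7, 3.72 and 4.33 CPM after PRA. Replicate 1 of the PRA group was at the level of the WT PRA libraries and the other 2 were below every IL-6 -/- vehicle library. The fitted difference was 0.48 ± 0.55 on the log2 scale (SE, 95% interval -0.69 to 1.65, edgeR adjusted p = 0.604), and the interaction was -1.72 ± 0.76 (SE, 95% interval -3.34 to -0.10, adjusted p = 0.515). Without IL-6 -/- PRA replicate 1 the difference was -1.0004 (edgeR adjusted p = 0.109), the interaction was -3.22 and passed (adjusted p = 0.00595), and IL-6 -/- PRA was below WT PRA by -2.43 and passed (adjusted p = 0.00385).

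Saa3 was also set against the hepatocyte forms. Its log2 ratio to the summed counts of Saa1 and Saa2 was -4.93 ± 0.81 in WT vehicle and -9.41 ± 0.41 in WT PRA (SD, n = 4 each, difference -4.48, exact permutation p = 0.0286, adjusted 0.0667). In IL-6 -/- liver it was -3.71 ± 0.48 after vehicle and -5.22 ± 1.25 after PRA (difference -1.51, exact permutation p = 0.0571, adjusted 0.08). Neither passed after adjustment. The WT p of 0.0286 was the smallest that this design allows, so not passing is no evidence of equal ratios.

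Markers of cells other than hepatocytes were read beside Saa3. The summed level of 10 neutrophil markers was 1.42 to 3.24 CPM in WT vehicle, 11.2 to 13.3 CPM in WT PRA and 4.48 to 6.08 CPM in IL-6 -/- vehicle. In IL-6 -/- PRA it was 13.7 CPM in replicate 1, the library with high Saa3, and 7.03 and 4.18 CPM in the others. Replicate 1 also had the highest hepatocyte marker sum of its group, at 135455 CPM against 116182 and 110867 CPM. The monocyte and Kupffer cell sums of this group were highest in replicate 2. Of the 6 neutrophil markers tested, 6 rose in WT PRA (9.74% of all tested genes rose) and 2 rose in IL-6 -/- PRA (7.96% of all tested genes). Those in WT PRA were led by S100a8 (log2 fold change 3.75, edgeR adjusted p = 8.59e-08), which encodes a subunit of calprotectin. Ly6g and the granule genes Camp, Ngp and Ltf were too low to test.

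Kupffer cell markers, which define liver macrophages, summed to 101 to 242 CPM in WT vehicle and 202 to 308 CPM in WT PRA. The lowest edgeR adjusted p of these 8 genes was 0.103 in WT PRA and 0.433 in IL-6 -/- PRA against vehicle. Of 7 monocyte markers tested 2 rose in WT PRA, Itgam and Plac8, where 9.74% of all genes rose. In IL-6 -/- PRA 1 of the 7 was called, a share near the 16.3% of all tested genes called there. It was Ccr2, which fell by 1.51 on the log2 scale (edgeR adjusted p = 0.0012) and was named after its value was seen. Adipocyte markers summed to 10.8 to 17.3 CPM in WT vehicle, 16.5 to 36.5 CPM in WT PRA, 12.2 to 14.0 CPM in IL-6 -/- vehicle and 19.4 to 32.3 CPM in IL-6 -/- PRA. These sums were almost wholly Fabp4, which endothelial cells also express and which rose in both genotypes (log2 fold changes 0.99 and 1.02, edgeR adjusted p = 0.00229 and 0.00422). Adipoq, Plin1, Lep and Retn had mean levels of 0.131 CPM or less in each group.

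Markers of the other resident liver cells were also called. Of 8 endothelial markers 6 fell and 1 rose in WT PRA and 4 fell and 1 rose in IL-6 -/- PRA, where 22.1% and 16.3% of all genes were called. The 1 that rose in each was Lyve1, named after its value was seen. Kdr, a receptor of vascular endothelial growth factor, fell by 1.53 and 1.31 on the log2 scale (edgeR adjusted p = 1.90e-06 and 4.94e-05). Of 8 stellate cell markers 3 fell in each genotype, Lrat, Ngfr and Pdgfrb. Of 10 hepatocyte markers 3 rose in WT PRA and 4 in IL-6 -/- PRA, among them Tat, encoding tyrosine aminotransferase (log2 fold changes 2.16 and 2.202, edgeR adjusted p = 0.000183 and 0.00034). The part of any of these cells in the values of the Saa genes was not tested.

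Saa4 (ENSMUSG00000040017), the form called constitutive, was not constant in these livers. It was at 224, 206, 289 and 218 CPM in the normal libraries, at 567, 585, 349 and 661 CPM in WT vehicle and at 1467, 2073, 1367 and 1415 CPM in WT PRA. These 3 groups did not overlap each other. The rise with PRA over vehicle was 2.92-fold (log2 fold change 1.55 ± 0.19, SE, 95% interval 1.14 to 1.95, edgeR adjusted p = 1.13e-05).

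Saa4 in IL-6 -/- liver was at 249, 421, 346 and 330 CPM after vehicle and at 1194, 857 and 940 CPM after PRA, again without overlap. The rise was 2.96-fold (log2 fold change 1.57 ± 0.20, SE, 95% interval 1.14 to 1.99, edgeR adjusted p = 3.05e-05). The interaction was 0.02 ± 0.28 on the log2 scale (SE, edgeR adjusted p = 0.996), and its 95% interval of -0.56 to 0.60 leaves room for a response somewhat smaller or larger than in WT liver. The intervals of the interaction for Saa1 (-5.84 to -3.50) and Saa2 (-7.89 to -4.49) lie wholly below it.

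Saa4 was also higher in WT vehicle than in normal liver. The labels give no schedule or harvest time for the normal group, so injection, timing and handling cannot be told apart in this comparison. WT vehicle exceeded normal 2.31-fold (log2 fold change 1.20 ± 0.19, SE, edgeR adjusted p = 0.0025, no overlap), and Saa4 was the only 1 of 4 members called in this comparison, in which 1.18% of genes were higher and 2% were called. Saa1 was 1.24 ± 0.36 higher on the log2 scale (SE, edgeR adjusted p = 0.0881) and no WT vehicle library was below a normal one. Saa2 and Saa3 differed by 0.77 and 0.23 (edgeR adjusted p = 0.504 and 0.888). In the comparison of IL-6 -/- vehicle with normal 3.22% of genes were called. The lowest adjusted p of the 4 members there was 0.152 by edgeR, 2 of 4 had an unadjusted p under 0.05, and 0 passed by edgeR, DESeq2 or limma-voom. Genotype, injection and any difference between the mouse colonies cannot be told apart there.

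Taken from the normal group instead of vehicle, 4 of 4 members rose in WT PRA, where 13.5% of genes rose and 28.4% were called. The folds were 150 for Saa1, 350 for Saa2, 5.39 for Saa3 and 6.74 for Saa4 (edgeR adjusted p = 1.32e-08, 2.48e-07, 0.00326 and 7.26e-09). This comparison and that with vehicle share the WT PRA libraries.

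After vehicle, 0 of 4 members were called between the genotypes by edgeR, DESeq2 or limma-voom, where edgeR called 0.0706% of all genes. The log2 differences, IL-6 -/- minus WT, were -0.37 for Saa1, -0.73 for Saa2, 0.79 for Saa3 and -0.68 for Saa4 (edgeR adjusted p = 0.994, 0.947, 0.944 and 0.407). Saa4 was the 1 of 4 with an unadjusted p under 0.05 (95% interval -1.08 to -0.29). Under PRA the genotypes parted at Saa1 and Saa2, 2 of 4 members, where 2.15% of genes were lower and 3.8% were called. IL-6 -/- PRA was 32.8 times lower for Saa1 and 121 times lower for Saa2 (edgeR adjusted p = 7.19e-06 and 3.59e-05, lower in 3 of 3 libraries). Saa4 was -0.66 ± 0.21 on the log2 scale (SE, edgeR adjusted p = 0.0847) with no overlap between genotypes, and Saa3 was -0.93 ± 0.56 (SE, adjusted p = 0.449). Here too, genotype and any difference between the mouse colonies cannot be told apart.

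Ordered by mean level, the groups ran normal, IL-6 -/- vehicle, WT vehicle, IL-6 -/- PRA and WT PRA for Saa1, Saa2 and Saa4, and for Saa3 the 2 vehicle groups changed places. For Saa1 and Saa2 the only neighbours in this order whose libraries did not overlap were IL-6 -/- PRA and WT PRA, with a gap from 332 to 5774 CPM for Saa1 and from 90.7 to 5446 CPM for Saa2. For Saa3 all neighbours overlapped. For Saa4 the gaps were WT vehicle to IL-6 -/- PRA, from 661 to 857 CPM, and IL-6 -/- PRA to WT PRA, from 1194 to 1367 CPM.

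Together the family took 0.0348% ± 0.0065 of all gene counts in normal liver, 0.0749% ± 0.0179 in WT vehicle and 1.404% ± 0.245 in WT PRA (SD, n = 4 each). The share in IL-6 -/- liver was 0.0480% ± 0.0053 after vehicle (n = 4) and 0.117% ± 0.0195 after PRA (n = 3). To compare the members with each other, counts were divided by the length of the principal mRNA, which is 609 bases for Saa1, 606 for Saa2, 555 for Saa3 and 2094 for Saa4.

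Per length, Saa4 was the leading form in normal liver at 112 CPM per kb, with Saa1 at 83.3, Saa2 at 33.4 and Saa3 at 7.17. In WT PRA Saa1 was at 12505 and Saa2 at 11710 CPM per kb, Saa4 at 755 and Saa3 at 39.0. Saa4 again led in IL-6 -/- PRA, at 476 CPM per kb, with Saa1 at 382, Saa2 at 96.6 and Saa3 at 20.3. As a share of the family per length, Saa4 was 47.7% ± 2.7 in normal, 50.8% ± 15.0 in WT vehicle, 3.12% ± 0.88 in WT PRA, 46.1% ± 14.9 in IL-6 -/- vehicle and 49.7% ± 7.7 in IL-6 -/- PRA (SD). These shares depend on the length used. With the union of all annotated exons, 2478 bases for Saa1, 2518 for Saa2 and 2606 for Saa3, which was added after seeing the data, Saa4 was 79.0% in normal, 79.7% in WT vehicle, 11.6% in WT PRA, 76.3% in IL-6 -/- vehicle and 80.0% in IL-6 -/- PRA. The share was lowest in WT PRA with either length.

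Genes around serum amyloid A biology were read from lists. Their counts are to be set against the shares of all tested genes. These were 9.74% higher and 22.1% called in WT PRA, and 7.96% higher and 16.3% called in IL-6 -/- PRA. For the interaction 0.437% were lower and 0.475% were called. The cytokines that induce Saa genes had a sum of 6.25 to 10.8 CPM over 10 genes, and 5 of them passed the filter on low counts. Of these 5, edgeR called 1 in each genotype, a share near the 22.1% and 16.3% of all genes called, and both were lower. Ctf1, encoding cardiotrophin-1, fell by 0.54 on the log2 scale in WT PRA (edgeR adjusted p = 0.0186), and Il1b fell by 1.83 in IL-6 -/- PRA (adjusted p = 0.01), the second gene being chosen after its value was seen.

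Receptors for those cytokines were a list of 12, all tested. Of these, 6 rose and 0 fell in WT PRA (median log2 fold change 0.68, all genes -0.03) and 4 rose and 1 fell in IL-6 -/- PRA (median 0.24, all genes 0.00). Il1r1, the signalling receptor of interleukin-1, rose from 41.2 ± 27 to 191 ± 17 CPM in WT and from 21.5 ± 2.9 to 80.8 ± 14 CPM in IL-6 -/- liver (log2 fold changes 2.21 and 1.91, edgeR adjusted p = 0.000105 and 0.000854). The decoy receptor Il1r2 rose from a level near 0 in both (4.43 and 2.99, edgeR adjusted p = 1.69e-06 and 0.000259), as did the tumour necrosis factor receptor Tnfrsf1b (1.18 and 0.998, edgeR adjusted p = 0.000357 and 0.00342). Tnfrsf1a, the main death-domain receptor of tumour necrosis factor, was the 1 of 12 with a called interaction (-0.91, edgeR adjusted p = 0.00328): its log2 fold change was 1.07 in WT and 0.17 in IL-6 -/- liver.

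Transcription factors known to act on Saa promoters numbered 15. In WT PRA 6 rose and 2 fell, and in IL-6 -/- PRA 6 rose and 0 fell (medians 0.14 and 0.12), where 22.1% and 16.3% of all genes were called. The lowest edgeR adjusted p of an interaction among the 15 was 0.64. Cebpb, encoding C/EBP beta, rose from 177 ± 17 to 643 ± 25 CPM in WT and from 147 ± 17 to 443 ± 28 CPM in IL-6 -/- liver (log2 fold changes 1.86 and 1.59, edgeR adjusted p = 1.80e-10 and 9.00e-09). Cebpd, its partner C/EBP delta, rose by 2.28 and 2.04 (edgeR adjusted p = 3.53e-09 and 9.27e-08), and Rela, the p65 subunit of NF-kB, rose by 0.43 and 0.27 (edgeR adjusted p = 0.000504 and 0.0332). Cebpa fell by 0.60 in WT (edgeR adjusted p = 0.001), and its value in IL-6 -/- liver was -0.38 (adjusted p = 0.0502).

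**Figure D4:**
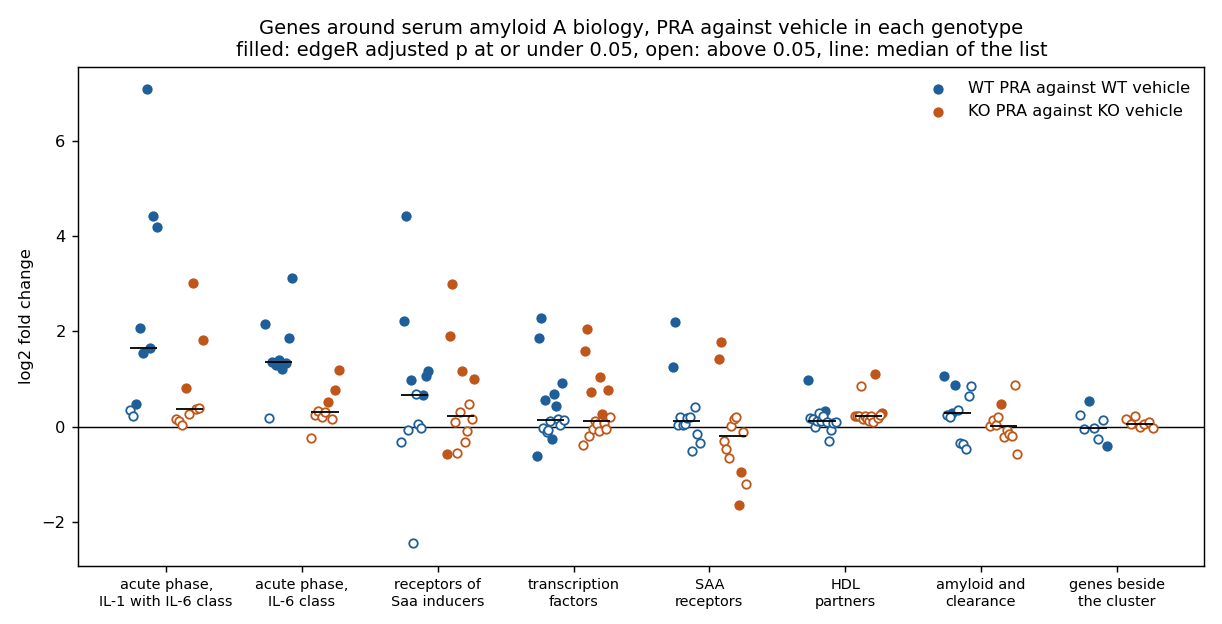
Log2 fold changes of PRA against vehicle for each tested gene of 8 lists, in WT liver (blue) and IL-6 -/- liver (KO, orange), where filled points have an edgeR adjusted p at or under 0.05 and lines mark list medians. The acute phase lists have WT medians of 1.65 and 1.37 and IL-6 -/- medians of 0.37 and 0.32, while the transcription factors have medians of 0.14 and 0.12.

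Other acute phase genes were split by the cytokines that are known to drive them. Of 9 genes of the class of Saa1 and Saa2, driven by interleukin-1 together with interleukin-6, 7 rose in WT PRA and 3 in IL-6 -/- PRA (medians 1.65 and 0.37), and 4 had a called, lower interaction, among them Orm2, encoding an orosomucoid (-4.03, edgeR adjusted p = 1.32e-05), and Lcn2, encoding lipocalin-2 (-4.06, adjusted p = 0.000434). Of 9 genes of the class driven by interleukin-6 alone, 8 rose in WT and 3 in IL-6 -/- PRA (medians 1.37 and 0.32), and 6 had a called, lower interaction. Such an interaction was found for 0.437% of all tested genes. Serpina3n, a serine protease inhibitor of the second class, rose by 3.12 in WT and by 1.19 in IL-6 -/- liver (edgeR adjusted p = 6.33e-13 and 2.17e-06).

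The partners of serum amyloid A on HDL include the apolipoproteins that it can displace. Of 14, 2 rose in each genotype (medians 0.13 and 0.23), a share near the 9.74% and 7.96% of all genes that rose. In WT PRA these were Abca1, the cholesterol exporter (log2 fold change 0.99, edgeR adjusted p = 5.60e-07), and Lcat, the enzyme that esterifies HDL cholesterol (0.33, adjusted p = 0.0221). Abca1 was the 1 of 14 with a called interaction (-0.77, edgeR adjusted p = 0.0174), with a value of 0.22 in IL-6 -/- liver.

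Among 12 tested receptors of serum amyloid A, 2 rose in WT PRA and 2 rose and 2 fell in IL-6 -/- PRA (medians 0.13 and -0.20), where 22.1% and 16.3% of all genes were called. Cd14, the co-receptor of Toll-like receptors, rose by 2.204 and 1.78 (edgeR adjusted p = 3.74e-06 and 0.000113), and Ager, the receptor for advanced glycation end products, rose by 1.25 and 1.42 from under 1 CPM (adjusted p = 0.0046 and 0.00268). The 2 that fell in IL-6 -/- PRA, named after their values were seen, were Tlr1 and Tlr2 (-1.63 and -0.95, edgeR adjusted p = 0.00512 and 0.0365).

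Of 11 genes of amyloid deposits and their clearance, 3 rose in WT PRA and 1 in IL-6 -/- PRA (medians 0.29 and 0.01), where 9.74% and 7.96% of all genes rose, so the count in IL-6 -/- PRA was near that of all genes. Apcs, encoding serum amyloid P, which binds amyloid fibrils and is itself an acute phase protein of the mouse, rose from 65.2 ± 8.7 to 136 ± 24 CPM in WT liver (log2 fold change 1.06, edgeR adjusted p = 0.00834). It was at 60.3 ± 20 and 60.9 ± 18 CPM after vehicle and PRA in IL-6 -/- liver (0.01, edgeR adjusted p = 0.983), and its interaction of -1.05 did not pass (edgeR adjusted p = 0.383). The lysosomal protease Ctsl rose in both genotypes (0.88 and 0.49, edgeR adjusted p = 9.17e-05 and 0.0264), and Ctsd rose in WT liver (0.29, adjusted p = 0.033).

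Genes beside the cluster were read as well. In RefSeq's order of build GRCm38.p6 the cluster runs Saal1, Saa3, Saa4, the pseudogene Saa-ps, Saa1, Saa2 and then Hps5. Of 7 neighbours tested, Ldha, a lactate dehydrogenase subunit, rose (log2 fold change 0.54, edgeR adjusted p = 0.0175) and Uevld fell (-0.41, adjusted p = 0.0427) in WT PRA. The lowest edgeR adjusted p of these 7 was 0.288 in IL-6 -/- PRA against vehicle and 0.648 in the interaction. Saal1, next to Saa3, was at 3.59 to 6.17 CPM over all libraries. Saa-ps had 2 counts or fewer in each library.

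Across the 19 libraries, the log2 CPM of Saa1 and Saa2 were correlated at a Pearson r of 0.98. Saa4 was correlated with Saa1 at 0.84 and with Saa2 at 0.79, and Saa3 with Saa1 at 0.79. These values describe libraries that share groups, depth and scaling. Among 10074 genes with a mean of at least 2 CPM, those most like Saa1 included Serpina3e-ps, Serpina3n, Orm2 and Orm1 (r from 0.97 to 0.98), and those most like Saa2 were Syt12, Steap4, Lrrc8a, Myd88 and Prg4 (r 0.97 each). Those most like Saa3 were Hpx, Hp, Lbp, Serping1 and Sat1, at a lower r of 0.83 to 0.90.

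Saa4 had a different set: Fbxo31, Cyp3a13, Map3k6, C9orf72 and Mt2, a metallothionein (r 0.96 each). Mt2 had log2 fold changes of 4.34 in WT and 4.61 in IL-6 -/- PRA (edgeR adjusted p = 4.92e-06 and 7.63e-06), and like Saa4 it was higher in WT vehicle than in normal (4.65, adjusted p = 8.68e-05). Map3k6, a stress-activated kinase, had log2 fold changes of 2.13 and 2.63 (edgeR adjusted p = 2.70e-05 and 1.37e-05). Of the 5 genes most like Saa4, 1 had an interaction with an unadjusted p under 0.05 and 0 had a called one by edgeR. The 9 genes named for Saa1 and Saa2 all had a called interaction, where 0.475% of all tested genes had one. Likeness over these libraries takes in the same contrasts, so these counts describe the patterns and give no separate evidence.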

How the data were processed

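The data were 19 RNA sequencing libraries of mouse liver, for which the authors deposited whole-number read counts per gene, made with HISAT2 2.2.1, SAMtools 1.13 and HTSeq 0.11.3 on build GRCm39, per the submitters' processing notes. No source used here gives the annotation release or the strand setting, so reads of a gene and of an antisense partner may not be told apart. Of the deposited counts, 14.07% to 19.15% per library were in the row for alignments without a unique place and 0.505% to 0.639% in the row for ambiguous ones, and these rows, which name no gene, stayed out of library sizes. The single-library files and the series table held the same values. Of 55416 genes, 52083 had a symbol in the reference gene table. No pair of libraries of a group agreed within sampling noise (lowest chi-square per degree of freedom 20.93).

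Genes were filtered by filterByExpr of edgeR 4.0.16 (R 4.3.3), scaled by TMM, and tested in 1 robust quasi-likelihood fit of all 5 groups with 8 contrasts, with Benjamini-Hochberg adjustment over 15570 genes and a threshold of 0.05. The fit was also run on simulated data, with far fewer changed genes than were called in WT PRA and smaller folds than those of Saa1 and Saa2. That run therefore does not cover changes of this number or size. Alternatives were DESeq2 1.42.0, limma 3.58.1 (voom), other scalings and filters, a replicate block, fits of the compared groups alone, Saa1 and Saa2 summed, and each library left out. At these depths a floor of 3 counts is 0.0405 to 0.0935 CPM, which covers counting error only. Ratios used a pseudocount of 0.5 and 2-sided exact permutation tests, and log2 CPM used a prior count of 2. Named genes were the 4 members, Il6, up to 4 genes per list that passed in WT PRA against vehicle (smallest p first), and the 5 genes with the highest Pearson r to each member (mean of at least 2 CPM, named loci only), of which 1 is not reported here. Members and lists were chosen with earlier results of these data known. Promoter windows came from RefSeq (GRCm38.p6) and mRNA lengths from GENCODE M21, another build than that of the counts, used for sequences, names and lengths only.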

Additional observations from a re-analysis of the deposited data

Results flagged for a closer look

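The Saa2 level of IL-6 -/- vehicle replicate 1 stood apart from the rest of its group, at 44.67 CPM where the other 3 libraries were at 9.57 to 15.0 CPM. The Saa4 level of WT PRA replicate 2 stood apart in the same way, at 2073 CPM where the other 3 were at 1367 to 1467 CPM. A gap this wide is met by chance in about 1 of 20 groups, and 20 groups of values were looked at. The response to PRA differed between genotypes by a test of the difference itself for Saa2 (-6.193 on the log2 scale, IL-6 -/- minus WT, edgeR adjusted p = 0.00115) and for Saa1 (-4.667, edgeR adjusted p = 0.000425). The cause of these values was not tested.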

How the results depend on the processing

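The rises of all 4 members in WT PRA, the lower interactions of Saa1 and Saa2 and the rise of Saa4 in IL-6 -/- PRA kept their direction and call in each alternative that was run. The call of Saa1 in IL-6 -/- PRA against vehicle did not: without the low-count filter it was 1.32 (edgeR adjusted p = 0.0547) and in a fit of the compared groups alone 1.32 (0.105), which left 1 member called there instead of 2. Saa4 passed between genotypes under PRA in the fit of the compared groups (-0.70, edgeR adjusted p = 0.0221) and by DESeq2 (-0.67, adjusted p = 0.0265). By DESeq2 Saa1 also passed between WT vehicle and normal (1.23, adjusted p = 0.0222), so 2 members were called instead of 1. By limma-voom Saa2 passed in IL-6 -/- PRA against vehicle (1.87, adjusted p = 0.00859) and changed sign between IL-6 -/- vehicle and normal (-0.26, adjusted p = 0.798). The summed pair of Saa1 and Saa2 passed in IL-6 -/- PRA (1.36) where Saa2 alone did not. The cause of these changes was not tested.

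With the replicate number as a block, Saa2 passed in IL-6 -/- PRA against vehicle (1.53, edgeR adjusted p = 0.038), changed sign between IL-6 -/- vehicle and normal (-0.14, adjusted p = 0.923), and no other call of a member changed. The numbers are only shared labels: the correlation of deviations from group means had a median of 0.00535 over 36 pairs with the same number (-0.253 to 0.193) and of -0.00767 over 108 other pairs.

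Leaving out 1 library at a time gave log2 differences in IL-6 -/- PRA against vehicle of 0.996 to 1.58 for Saa1, 1.03 to 2.19 for Saa2 and -1.0004 to 0.886 for Saa3, with 1 to 3 members called. Between IL-6 -/- PRA and WT PRA, Saa3 ranged from -2.43 to -0.52. The interaction ranged from -3.22 to -1.31 for Saa3 and from -0.14 to 0.18 for Saa4, and Saa2 in IL-6 -/- vehicle against normal from -0.66 to 0.28. The log2 ratio of Saa1 to Saa2 ranged from -0.66 to 0.24 for IL-6 -/- PRA against IL-6 -/- vehicle and from -0.11 to 0.70 for IL-6 -/- vehicle against WT vehicle.

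Over all genes, DESeq2 called 179 in the interaction (74 by edgeR), 913 in IL-6 -/- PRA against WT PRA (591), 54 in IL-6 -/- vehicle against WT vehicle (11), 649 in WT vehicle against normal (311) and 848 in IL-6 -/- vehicle against normal (502). limma-voom called 21 between the vehicle groups and 648 in WT vehicle against normal, and fits of the compared groups alone called 7, 154 and 225 in the last 3 of these. With 1 library left out, the lowest counts were 37 in the interaction and 1671 in IL-6 -/- PRA against vehicle (both without IL-6 -/- PRA replicate 2), 314 between the PRA groups (without IL-6 -/- PRA replicate 1), 2 between the vehicle groups (without WT vehicle replicate 4), 128 in WT vehicle against normal (without normal replicate 2) and 176 in IL-6 -/- vehicle against normal (without IL-6 -/- vehicle replicate 2).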
